A study of Drosophila melanogaster with 34 samples.

Results

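MDG3 is the consensus sequence of mdg3 (mobile dispersed gene 3), an LTR retrotransposon of Drosophila melanogaster. It is 1 of 129 transposon consensus sequences in the 11 tables used here. It was picked from the ATAC measurements, because its ATAC gain was larger after H1 knockdown (H1-KD) than after Piwi knockdown (Piwi-KD). Those ATAC values are therefore given as a description, without a test. The consensus, with a recovered length of 5253 bp, represents all genomic copies together, so no chromosome position applies to it.

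The cells were a Drosophila culture of somatic follicle type, ovarian somatic cells (OSC), kept at 26 degrees and given siRNA by nucleofection. The control siRNA (Control-KD) was directed against EGFP, and the others against Piwi, H1, HP1a or Mael. Poly(A)+ RNA was measured in Control-KD, Piwi-KD and H1-KD, and small RNA bound to immunoprecipitated Piwi in Control-KD and H1-KD. ATAC, which maps open chromatin with a transposase, covered all 5 conditions, with 2 labelled samples but 1 table column each. ChIP for H3K9me3 and for HP1a covered Control-KD, Piwi-KD and H1-KD, and ChIP for H1 covered 3 Control-KD samples and 1 sample each of Piwi-KD, Mael-KD and HP1a-KD. The 34 samples formed 25 groups. The tables list transposons and no genes, so the depletion of each siRNA target and the cell type were not checked.

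The mdg3 element belongs to the Ty3/gypsy superfamily and moves through an RNA copy. It carries gag and pol and lacks the env gene that errantiviruses such as gypsy use for cell-to-cell spread. In ovarian somatic cells, Piwi is loaded with piRNAs, small RNAs that match transposon transcripts, and directs transcriptional silencing of these elements in the nucleus. Mael acts in this silencing together with Piwi, H3K9me3 is the histone mark laid down at silenced copies, HP1a binds that mark, and H1 is the linker histone that compacts nucleosome arrays.

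Levels are RPKM, reads scaled by consensus length and library size, except for small RNA, which is RPM, scaled by library size alone. Read totals ran from 20625614 to 25544579 for RNA and from 6973985 to 7397276 for small RNA. They ran from 3381967 to 5674137 for ATAC and from 1560307 to 4266312 over the ChIP and input libraries. Apart from the 3 Control-KD libraries of H1 ChIP and of input, every condition has 1 column per assay, and replicate spread could not be measured. Intervals in brackets are at 95% and cover counting error only. A log2 change was taken after adding a small pseudocount, and 96 transposons remained after a filter on low values. A transposon was counted as higher or lower from 2-fold for RNA and small RNA and from 1.5-fold for ATAC and ChIP.

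MDG3 DNA was nearly the same in every input library. It stood at 193.8 RPKM in Control-KD sample 1, 195.1 in Control-KD sample 2 and 198.3 in Control-KD sample 3. Among the knockdowns, Piwi-KD stood at 201.1, H1-KD at 204.5, HP1a-KD at 204.1 and Mael-KD at 186.5. Over the 7 libraries the coefficient of variation was 3.24%, against a median of 9.78% over the kept transposons. The knockdown values were neither all above nor all below the controls. Per length, MDG3 ranked between 22 and 25 of 129 transposons in input.

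MDG3 was a well expressed transposon in control cells. Its RNA stood at 69.7 RPKM from 8930 reads (68.2 to 71.1), 10th of 129 per length. In ATAC it stood at 250.3 RPKM from 4446 reads (243.0 to 257.7), 15th of 129. Piwi-bound small RNA mapping to it came to 2190 RPM from 16198 reads (2156 to 2224), which is 31st of 126 per length. H3K9me3, HP1a and H1 over input were, by contrast, below the median kept transposon, as given further down.

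MDG3 RNA was higher in both knockdowns in which RNA was measured. It stood at 285.2 RPKM in Piwi-KD from 30897 reads, and at 436.5 RPKM in H1-KD from 58567 reads. Both libraries lay above the control, and the counting intervals of the 3 libraries did not overlap. In Piwi-KD this was 4.09-fold the control (3.998 to 4.19), a log2 change of 2.02 and the 16th highest of 96. Of the 96 transposons, 23 (24.0%) were at least 2-fold higher in Piwi-KD, and the median transposon changed by 0.11, so that MDG3 stood 1.91 above it.

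In H1-KD, MDG3 RNA was 6.27-fold the control (6.13 to 6.41), a log2 change of 2.64 and the 19th highest. At least 2-fold higher values were common in that library, with 56 of 96 transposons (58.3%) past that size and none as much lower. With a median change of 1.19 over all transposons, MDG3 stood 1.45 above the median, and by this centred measure 24 transposons were higher and 11 lower. MDG3 RNA was 1.53-fold higher in H1-KD than in Piwi-KD (1.51 to 1.55), a log2 difference of 0.61. This ranked 52nd, below the median difference of 0.73, and turned to -0.12 relative to it.

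Small RNA bound to Piwi, the guide of silencing, was slightly below the control level for MDG3 in H1-KD. It stood at 2190 RPM in Control-KD and 2048 RPM in H1-KD, the latter from 14284 reads. The ratio was 0.935 (0.914 to 0.957), a log2 change of -0.10 that ranked 64th of 96. In that comparison 32 of 96 transposons (33.3%) were at least 2-fold higher and none as much lower. The median transposon was at 0.27, so that MDG3 stood 0.37 below it on the log2 scale (-0.37).

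**Figure D1:**
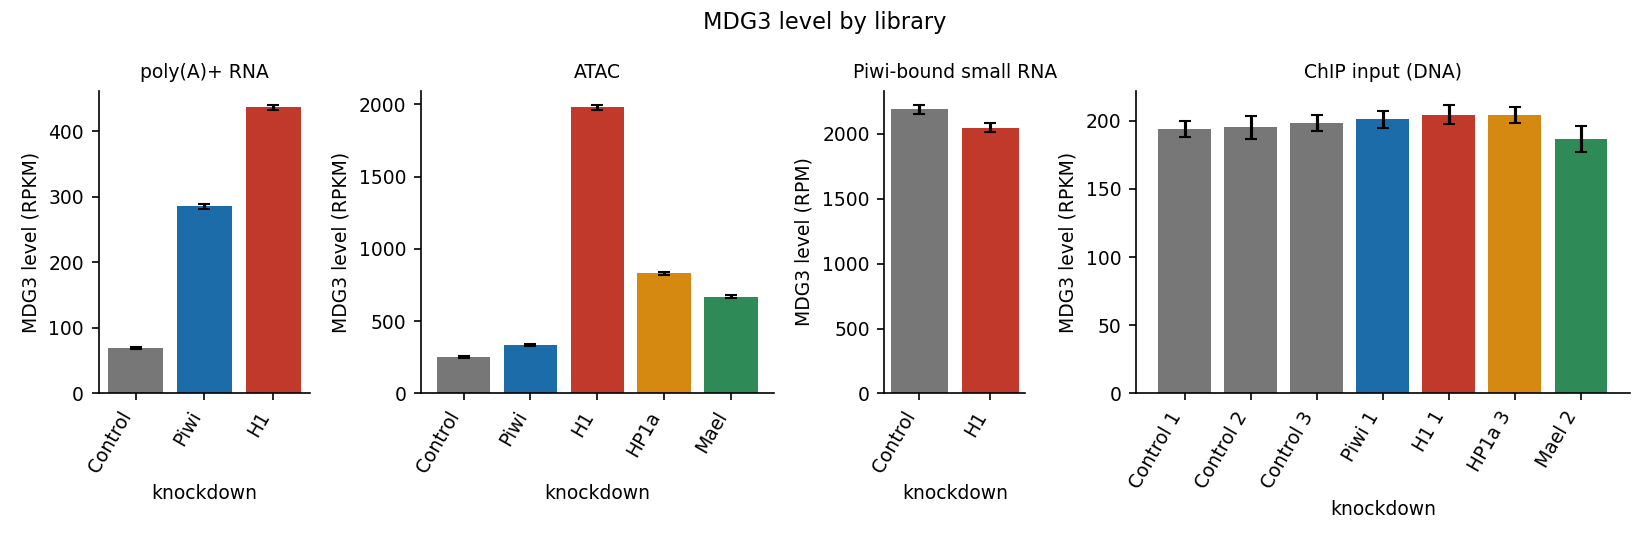
MDG3 level in each library of poly(A)+ RNA, ATAC and ChIP input (RPKM) and of Piwi-bound small RNA (RPM), with bars coloured by knockdown and 95% Poisson counting intervals as error bars. The ATAC bar of H1-KD reaches 1979 RPKM against 250.3 in the control, while input stays between 186.5 and 204.5 RPKM in all 7 libraries.

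The ATAC values that chose MDG3 were 250.3 RPKM in Control-KD, 332.4 in Piwi-KD and 1979 in H1-KD. The H1-KD value rested on 51791 reads and the Piwi-KD value on 9907. MDG3 took 0.131% of the control ATAC reads and 1.04% of those in H1-KD. Of the reads on the transposons with a recovered length, its share was 1.17% in the control, 0.683% in Piwi-KD and 6.74% in H1-KD. The lower share in Piwi-KD came from more reads on other transposons. Of all ATAC reads in Piwi-KD, MDG3 took 0.175%, which is above the control. Per length it ranked 15th of 129 in the control, 16th in Piwi-KD and 4th in H1-KD.

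Against the control, MDG3 ATAC was 1.33-fold higher in Piwi-KD (1.28 to 1.38), a log2 change of 0.40, which is under the 1.5-fold size. In that comparison 13 of 96 transposons (13.5%) were past 1.5-fold in either direction, 11 of them higher. Relative to a median of -0.32, MDG3 stood at 0.72, which is past that size, and 14 transposons were then higher and 0 lower. In H1-KD it was 7.91-fold higher (7.67 to 8.16), a log2 change of 2.95. Past 1.5-fold higher in H1-KD were 12 of 96 transposons (12.5%). Above MDG3 were DM297 at 3.49, an errantivirus-type LTR element, and Gypsy2 at 2.98, and the next below was COPIA, a Ty1/copia LTR element, at 1.44. The counting interval of MDG3 on the log2 scale, 2.94 to 3.03, contains the Gypsy2 value, so the order of MDG3 and Gypsy2 was not resolved. GYPSY2, in capitals, is a separate entry and was not among the 12.

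The contrast between these knockdowns set MDG3 apart by the rule itself. The H1-KD level was 5.95-fold the Piwi-KD level (5.83 to 6.08), and the log2 difference of 2.55 was the highest of 96. The transposons after it were HMSBEAGLE at 1.06, STALKER3 at 0.83, ZAM at 0.80, DIVER at 0.79 and INVADER4 at 0.73. A larger change in H1-KD than in Piwi-KD was found for 77 of 96 transposons. Of these, 7 were also at least 1.5-fold above the control in H1-KD, MDG3 among them. In this contrast 11 of 96 (11.5%) were past 1.5-fold higher and 9 past 1.5-fold lower. Relative to the median difference of 0.20, these counts were 5 and 11.

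**Figure D2:**
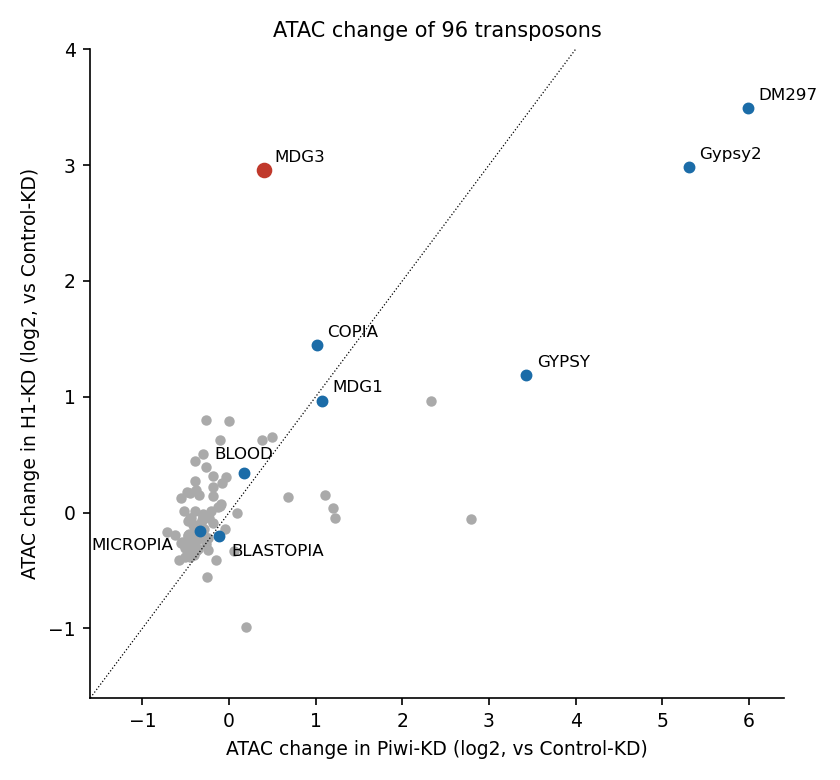
ATAC log2 change in H1-KD (vertical axis) against that in Piwi-KD (horizontal axis), both relative to the same Control-KD column, for 96 transposons, with the dotted line at equal change. MDG3, in red at 0.40 and 2.95, lies far above the line, while DM297, Gypsy2 and GYPSY lie below it and MICROPIA and BLASTOPIA near the origin.

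The ATAC columns of HP1a-KD and Mael-KD, which the rule did not use, share the Control-KD column with it. MDG3 stood at 831.8 RPKM in HP1a-KD (820.8 to 842.9) from 21753 reads. It stood at 667.6 RPKM in Mael-KD (656.7 to 678.6) from 14402 reads. The order of levels was thus Control-KD, Piwi-KD, Mael-KD, HP1a-KD and H1-KD, and the counting intervals of neighbours in that order did not overlap. Whether they differ beyond the spread between cultures could not be tested with 1 column each.

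In HP1a-KD, MDG3 ATAC was 3.32-fold the control (3.22 to 3.43), a log2 change of 1.71 and the 5th highest. There 30 of 96 transposons (31.2%) were past 1.5-fold higher and 0 past it lower. Centred on the median of 0.21, these counts were 22 and 4, and MDG3 stood at 1.49. In Mael-KD it was 2.67-fold the control (2.58 to 2.76), a log2 change of 1.39 and the 4th highest. There 8 of 96 transposons (8.33%) were past 1.5-fold higher and 2 past it lower. Relative to a median of -0.23, 11 were higher and 0 lower, with MDG3 at 1.63.

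Between knockdowns, MDG3 held the highest ATAC difference of 96 transposons in 3 further contrasts, each of which uses the H1-KD or the Piwi-KD column that the rule used. It was 2.38-fold higher in H1-KD than in HP1a-KD (2.34 to 2.42), where the next transposon, Gypsy2, stood at a log2 difference of 0.83 against 1.24 for MDG3. Only these 2 transposons (2.08%) were at least 1.5-fold higher there and 24 were as much lower. Centred on the median difference of -0.31, these counts were 6 and 13. It was 2.96-fold higher in H1-KD than in Mael-KD (2.91 to 3.02), with a log2 difference of 1.56 against 1.40 for Gypsy2, and 6 of 96 (6.25%) were past 1.5-fold higher. Relative to the median difference of 0.16, 3 were higher and 3 lower, against 6 and 3 as deposited.

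MDG3 was also the single transposon (1.04%) at least 1.5-fold higher in Mael-KD than in Piwi-KD. Its Mael-KD level was 2.01-fold the Piwi-KD level (1.96 to 2.06), a log2 difference of 0.99, and the next highest was DMTOM1 at 0.42. In the same contrast 7 transposons were at least 1.5-fold lower.

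H3K9me3 on MDG3 was above input in every library and was not past 1.5-fold from the control in either knockdown. The ratio of ChIP to input was 2.09 in Control-KD (2.003 to 2.18), 1.97 in Piwi-KD (1.89 to 2.06) and 2.39 in H1-KD (2.29 to 2.49). Piwi-KD was the lowest of the 3 and H1-KD the highest. In the control MDG3 ranked 72nd of 96, and the median kept transposon was at 2.73. The log2 change was -0.080 in Piwi-KD and its ratio interval (0.890 to 1.002) held 1. In H1-KD the change was 0.19, a ratio of 1.14 (1.08 to 1.21).

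Past 1.5-fold in either direction were 26 of 96 transposons (27.1%) for H3K9me3 in Piwi-KD, 13 higher and 13 lower. Relative to a median of 0.32 these were 1 higher and 14 lower, and MDG3 stood at -0.40, still under that size. In H1-KD 8 of 96 (8.33%) were past it, with a median of -0.0061. MDG3 ranked 78th in Piwi-KD and 27th in H1-KD.

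HP1a on MDG3 gave a like order at lower ratios. HP1a over input was 1.29 in Control-KD (1.24 to 1.35), 1.21 in Piwi-KD (1.15 to 1.26) and 1.55 in H1-KD (1.49 to 1.62). The control value ranked 77th of 96, with a median of 1.81. The log2 changes were -0.10 in Piwi-KD, a ratio of 0.934 (0.876 to 0.996), and 0.25 in H1-KD, a ratio of 1.199 (1.13 to 1.28). Both were under 1.5-fold, a size reached by 8 of 96 transposons (8.33%) in Piwi-KD and by 2 of 96 (2.08%) in H1-KD. Relative to the median transposon MDG3 stood at -0.15 in Piwi-KD and at 0.13 in H1-KD.

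H1 itself was measured on MDG3 in 6 libraries. H1 over input was 1.197 in Control-KD sample 1, 1.05 in sample 2 and 1.12 in sample 3, a mean of 1.12 ± 0.0722 (SD, n = 3). It was 1.13 in Piwi-KD sample 1, 1.09 in Mael-KD sample 2 and 0.970 in HP1a-KD sample 3. The Piwi-KD and Mael-KD values fell between the controls, and the HP1a-KD value lay below all 3 of them. So did 64 of 96 transposons (66.7%) in that HP1a-KD library. For H1 over input in Control-KD samples 1, 2 and 3, MDG3 ranked 66th, 72nd and 63rd of 96. The median kept transposon was at 1.30, 1.14 and 1.18 there. None of the samples was H1 ChIP from H1-KD cells.

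H1 over input was tested with limma across the 96 transposons in 1 fit of these 6 libraries. MDG3 had a log2 change of 0.016 in Piwi-KD (SE 0.195, Benjamini-Hochberg adjusted p = 0.966). In Mael-KD it was -0.048 (adjusted p = 0.940) and in HP1a-KD -0.21 (adjusted p = 0.783), from limma with the same SE. The 95% intervals were -0.37 to 0.40, -0.43 to 0.34 and -0.59 to 0.18. The fit called 5 of 96 transposons in Piwi-KD (5.21%), 1 in Mael-KD (1.04%) and 4 in HP1a-KD (4.17%). Each lone knockdown library was assumed to vary like the controls. The fit gave all 96 transposons 1 common variance. These p-values therefore set the MDG3 change against a spread between control samples shared by all of them, not its own. The labels do not say that sample numbers are separate cultures, so that spread may be technical.

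**Figure D3:**
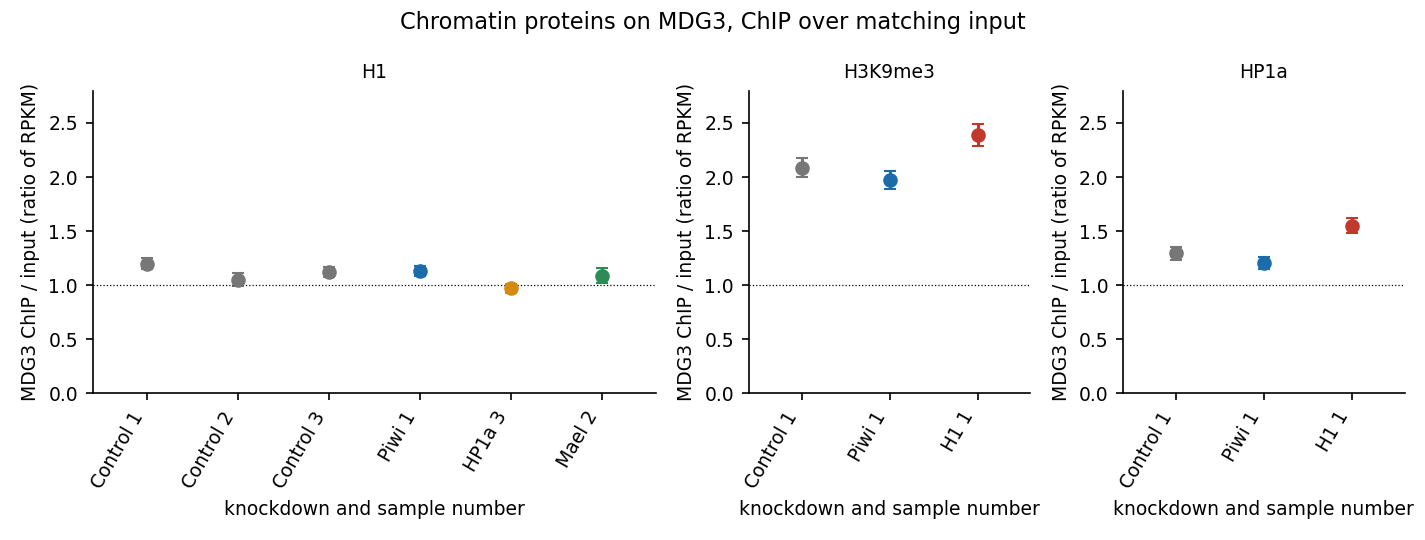
ChIP over matching input on MDG3 (ratio of RPKM values, vertical axis) for H1, H3K9me3 and HP1a in each library, named by knockdown and sample number, with 95% counting intervals, and a dotted line at 1. H3K9me3 lies between 1.97 and 2.39, HP1a between 1.21 and 1.55, and H1 between 0.970 and 1.197.

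MICROPIA and BLASTOPIA, the other measured members of the mdg3 group of Ty3/gypsy elements, gave other ATAC values than MDG3. BLASTOPIA stood at 329.6 RPKM in Control-KD, with Piwi-KD at 304.3, Mael-KD at 318.7, H1-KD at 286.5 and HP1a-KD at 382.3. MICROPIA stood at 82.9 RPKM in Control-KD, with Piwi-KD at 64.4, Mael-KD at 66.9, H1-KD at 73.5 and HP1a-KD at 81.2. In H1-KD their log2 changes were -0.20 and -0.16, against 2.95 for MDG3 and a median of -0.081 over all 96. No MICROPIA or BLASTOPIA value was 1.5-fold from the control in any of the 4 ATAC knockdowns.

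In RNA, BLASTOPIA stood at 44.7 RPKM in Control-KD, 135.3 in Piwi-KD and 72.3 in H1-KD, log2 changes of 1.59 and 0.68. MDG3 was thus higher in H1-KD than in Piwi-KD (0.61), and BLASTOPIA lower (-0.90). The median difference over the 96 transposons was 0.73, above the MDG3 value. MICROPIA RNA was under the filter, at 0.257 RPKM in Control-KD from 31 reads, 0.323 in Piwi-KD and 1.70 in H1-KD. Its Piwi-bound small RNA was 8.65 RPM in the control from 64 reads and 706.5 RPM in H1-KD, a log2 change of 5.41. BLASTOPIA small RNA was 5970 RPM in the control and 5311 in H1-KD, a change of -0.17, near the -0.10 of MDG3.

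MDG1 and BLOOD, LTR elements of the mdg1 group that are usually listed as Piwi targets of OSC and likewise lack env, also differed from MDG3 in their values. MDG1 ATAC was 197.6 RPKM in the control, 421.4 in Piwi-KD and 391.9 in H1-KD, so that its log2 changes were alike, at 1.07 and 0.97. BLOOD ATAC changed by 0.17 and 0.34. H3K9me3 over input changed in Piwi-KD by -1.63 on MDG1 and -0.95 on BLOOD, and in H1-KD by -0.71 and -1.21. It changed by -0.080 and 0.19 on MDG3. The small changes on MDG3 were shared within its own group. BLASTOPIA was at -0.053 in Piwi-KD and 0.0095 in H1-KD, and MICROPIA at 0.55 and -0.082. HP1a over input in H1-KD changed by 0.254 on MDG3, 0.256 on MICROPIA and 0.093 on BLASTOPIA, against -0.37 on MDG1 and -0.68 on BLOOD. RNA of MDG1 was 5.09 above the control in Piwi-KD and 5.67 in H1-KD, and RNA of BLOOD 0.61 and 0.43.

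The mdg1 group as written had 9 names, of which 8 were measured. In ATAC of H1-KD 3 of the 8 were at least 1.5-fold higher and none lower, with a median log2 change of 0.42 and a highest value of 0.97. The background over all 96 transposons was 12 higher (12.5%), 1 lower and a median of -0.081. In H3K9me3 of H1-KD 3 of the 8 were at least 1.5-fold lower and none higher, with a median of -0.44, against 6 of 96 lower, 2 higher and a median of -0.0061 over all. In H3K9me3 of Piwi-KD 5 were lower and 1 higher, with a median of -1.01. Over all 96, 13 were lower and 13 higher with a median of 0.32, or 14 and 1 when centred on it. MDG3 exceeded all 8 in ATAC of H1-KD, which the rule used, and all but 1 in H3K9me3 of H1-KD, which it did not use.

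**Figure D4:**
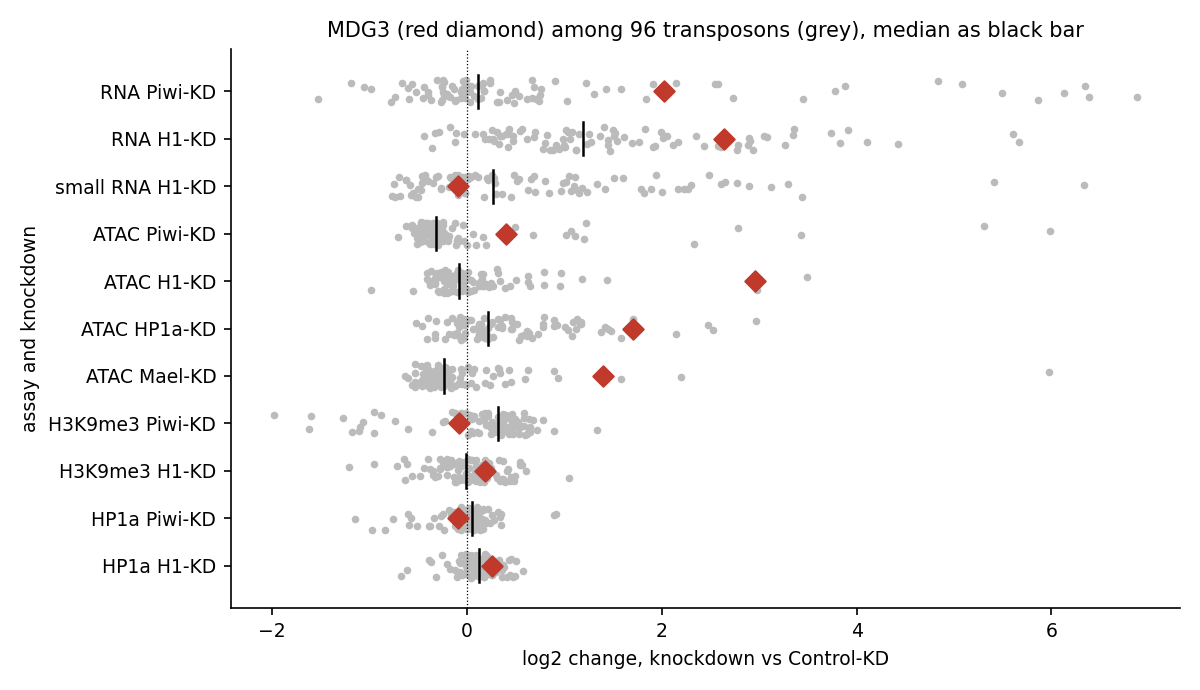
Log2 change relative to Control-KD (horizontal axis) in 11 assay and knockdown pairs (vertical axis), with MDG3 as red diamonds, the other transposons of the 96 as grey points and the median as black bars. MDG3 lies among the highest points in ATAC of Mael-KD (1.39), HP1a-KD (1.71) and H1-KD (2.95), and near 0 for small RNA (-0.10), H3K9me3 and HP1a.

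The 12 transposons at least 1.5-fold higher in ATAC of H1-KD, MDG3 included, were set side by side in their other readouts. This list was made from the ATAC values and is a description. In ATAC of Piwi-KD their log2 changes ran from -0.27 to 5.99, with a median of 0.75, and MDG3 was 8th of the 12. DM297 and Gypsy2, the elements above MDG3 in H1-KD, were at 5.99 and 5.31 in Piwi-KD against 0.40 for MDG3. In RNA of H1-KD 11 of the 12 were above 0, with a median of 1.94, and MDG3 at 2.64 was 6th. Over all transposons 88 of 96 were above 0, the same share, with a median of 1.19.

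H3K9me3 over input in H1-KD was below the control for 8 of these 12 and above it for 4, while 47 of all 96 were above it. The values ran from -0.96 for STALKER2 to 0.19 for MDG3, which was the highest, followed by DIVER at 0.16. HP1a over input was below the control for 6 and above it for 6, while 73 of all 96 were above it, with a median of 0.12. The 12 ran from -0.62 for STALKER2 to 0.25 for MDG3, again the highest, with GYPSY at 0.23. The MDG3 lead over the next element was small on both marks, and its counting intervals on the log2 scale, 0.11 to 0.28 and 0.17 to 0.35, contain the next value. Piwi-bound small RNA in H1-KD was below the control for 9 of the 12, with a median of -0.44 against -0.10 for MDG3. Over all 96, 57 were above it, with a median of 0.27.

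**Figure D5:**
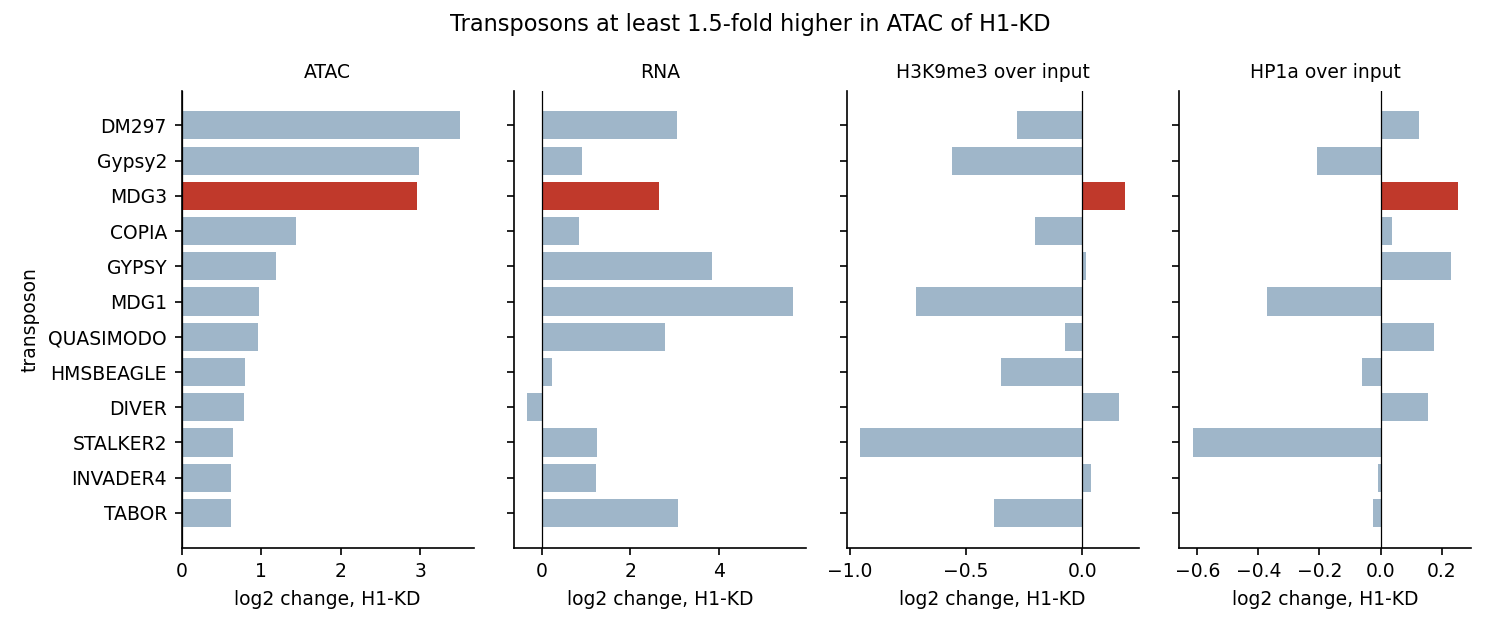
Log2 change in H1-KD relative to Control-KD (horizontal axes) in ATAC, RNA, H3K9me3 over input and HP1a over input for the 12 transposons at least 1.5-fold higher in ATAC of H1-KD (vertical axis), with MDG3 in red. MDG3 is 3rd in ATAC at 2.95, close to Gypsy2 at 2.98, and has the highest value of the 12 for H3K9me3 (0.19) and HP1a (0.25).

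No transposon followed MDG3 closely over all assays. Likeness was the root mean square difference of log2 values, each centred on the mean of its assay, over 22 values for 68 other transposons that passed the filter in every assay. These values include the ATAC columns that picked MDG3, so part of its distance from the others was set by the rule. The smallest differences belonged to INVADER4 (0.51), STALKER4 (0.52), PROTOP_A (0.53), COPIA (0.53) and DOC (0.54). The median over the 68 was 0.66, and the MDG3 values themselves spread by 0.65 about their assay means, so a flat profile would lie at that distance. Among the 5, the ATAC change in H1-KD, which the rule used, ran from -0.36 for DOC to 1.44 for COPIA, all below the 2.95 of MDG3. STALKER4, an LTR element of the mdg1 group, was near MDG3 in small RNA at 0.025, but at 3.45 in RNA of Piwi-KD and at -0.26 in ATAC of Piwi-KD.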

How the data were processed

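Each of the 11 tables lists the 129 transposons with 1 value per column. For RNA, ATAC, ChIP and input the authors deposited RPKM, and for small RNA they deposited RPM. These units were deduced from the numbers, since the labels and headers do not name them: a whole-number length for each of 126 transposons and a whole-number total for each column turned 3597 of 3597 nonzero values into whole reads, with a tolerance of 0.05. Per the submitters' processing notes, the tools were cutadapt, Bowtie 1.0.1, Bowtie2 2.0.6, TopHat2 2.0.7, Cufflinks 2.1.1 and MACS2, each for some assays. How reads matching several families were counted, whether a single ATAC column pools the 2 labelled replicates, and whether ATAC reads were shifted are not given in the sources used here. Reads shared by related families could move values between them.

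A pseudocount p was added to both values before the log2 ratio. It was 0.1 times a table's median nonzero value (0.553 RPKM for RNA, 5.80 for ATAC, 8.10 RPM for small RNA, 4.45 to 13.2 for ChIP and input), which understates changes of low transposons. ChIP was divided by the input with the same knockdown and number. For each assay, 33 of 129 transposons with the lowest mean over all its columns were dropped. Folds in the text are without pseudocount. Intervals were Poisson for levels, Clopper-Pearson for a ratio of 2 libraries, and normal on a log scale for ChIP over input. Without molecular identifiers, PCR copies count as reads, so intervals cover counting error only. H1 over input was fitted with limma 3.58.1 in R 4.3.3 (3 controls, 2 residual degrees of freedom), after a test on simulated data. The prior degrees of freedom of the main fit were infinite, so all 96 transposons got 1 common variance and the same SE. Other steps used Python 3.11.15, pandas 2.3.3 and scipy 1.17.1. Groups were read from the sample titles. MDG3, the mdg3 and mdg1 groups and the rule for similar transposons (the 5 smallest root mean square differences) were chosen with earlier results of these data known. A planned leave-one-out over ATAC replicates had no columns to use.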

Additional observations from a re-analysis of the deposited data

How the results depend on the processing

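Every log2 change of MDG3 that was past its fold size kept its sign and stayed past that size without a pseudocount, with the whole median as pseudocount, relative to the median transposon and, for RNA and ATAC, divided by input. With the whole median as pseudocount, Piwi-KD and H1-KD gave 1.95 and 2.56 in RNA. ATAC was then 0.34 for Piwi-KD, 1.24 for Mael-KD, 1.53 for HP1a-KD and 2.72 for H1-KD. Between knockdowns, ATAC of H1-KD was 2.38 against Piwi-KD, 1.19 against HP1a-KD and 1.49 against Mael-KD, and Mael-KD was 0.89 against Piwi-KD. Relative to the median transposon, RNA was 1.91 for Piwi-KD, 1.45 for H1-KD and -0.12 for H1-KD against Piwi-KD, and small RNA was -0.37. ATAC was then 0.72 for Piwi-KD, now past 1.5-fold, 1.63 for Mael-KD, 1.49 for HP1a-KD and 3.04 for H1-KD. The contrasts between knockdowns were 2.35, 1.56, 1.40 and 0.93 in the order above. Also relative to the median, H3K9me3 was -0.40 for Piwi-KD and 0.49 for H1-KD against Piwi-KD, and HP1a 0.13 for H1-KD and 0.25 for H1-KD against Piwi-KD. Divided by input, RNA was 1.97 for Piwi-KD, 2.56 for H1-KD and 0.59 between them. ATAC divided by input was 0.35 for Piwi-KD, 1.46 for Mael-KD and 2.88 for H1-KD, with 1.43 for H1-KD against Mael-KD and 1.10 for Mael-KD against Piwi-KD. The input used for RNA and ATAC was the ChIP input of the same knockdown. In the contrasts of Mael-KD with H1-KD and with Piwi-KD, the inputs had different sample numbers. ChIP without input left the H3K9me3 and HP1a changes within their counting intervals.

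For H1 over input, none of the limma alternatives gave MDG3 an adjusted p under 0.05. In Piwi-KD the change turned to -0.15 relative to the median transposon and ran from -0.031 to 0.064 when 1 control at a time was left out. Relative to the median transposon it was 0.062 in Mael-KD and -0.022 in HP1a-KD. The limma SE of MDG3 was then 0.0709, against 0.195 in the main fit. A replicate block left no residual degrees of freedom, so the difference from the control of the same number was taken as a value, -0.080 in Piwi-KD, 0.046 in Mael-KD and -0.21 in HP1a-KD. With 1 pair per knockdown, whether numbers pair the samples was not checked. The 5 calls in Piwi-KD became 10, 3 and 1 without control 1, 2 and 3, 3 without a filter and 0 without input. The 4 calls in HP1a-KD became 2, 3 and 2 without control 1, 2 and 3, and 0 without input or relative to the median transposon. The 1 call in Mael-KD became 3 without a filter and 0 without input or relative to the median transposon. At an unadjusted p under 0.05, limma without input had 6, 1 and 1 in Piwi-KD, Mael-KD and HP1a-KD, and relative to the median transposon 8 in Mael-KD and 19 in HP1a-KD. By Pearson correlation, 2 of the 5 transposons most like MDG3 remained. Leaving out ATAC replicates was not run, since the table holds 1 column per condition. Each MDG3 value rested on 1529 reads or more; the spread between cultures was not measured.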
